A study of Mus musculus with 12 samples.

Results

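Sox4, Sox5, Sox6, Sox8, Sox9 and Sox11 are the 6 genes described here, transcription factor genes of the Sox family that are known from chondrocytes. They were taken by their symbols, with earlier results of these data known, from the 17536 genes of the deposited Runx3 values, which hold 19 Sox family genes. The study concerns Runx2 and Runx3 in articular cartilage, and its Runx3 RNA-seq covers chondrocytes of the superficial zone (SFZ) and of the deep zone (DZ) of the joint ends of femur and tibia. There were 12 libraries in 4 groups of 3, numbered 1 to 3 by the labels, and each of the 4 groups is a zone of a genotype. All mice were 5 days old and of strain C57BL/6 by the labels, C57BL/6J by the methods. R3-Cntl mice were Runx3 fl/fl, and R3-cKO mice were Col2a1-Cre; Runx3 fl/fl, so that every group carried floxed Runx3 alleles and the Cre transgene set the genotypes apart. Col2a1-Cre acts in cells that express Col2a1 and in their descendants, which need not be every cell of an isolate. SFZ cells were the first cells released by trypsin and collagenase from cartilage freed of ligaments and tendons, and DZ cells came from a further collagenase digestion of what remained. By the methods, isolated cells were grown in monolayer for every experiment, and a caption of the study gives 3 individual littermates per genotype as the source of SFZ and DZ cells. Whether a library number marks the same mouse in both zones is not stated.

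The libraries labelled R3-cKO did not show less Runx3 than the controls. For Runx3, SFZ libraries 1, 2 and 3 had 10.73, 5.98 and 6.65 FPKM (R3-Cntl) or 11.83, 9.07 and 3.42 FPKM (labelled R3-cKO), and DZ libraries 12.67, 12.65 and 7.66 FPKM (R3-Cntl) or 15.95, 12.66 and 8.14 FPKM (labelled R3-cKO). Such a value adds up all Runx3 exons and cannot show whether the floxed part was there, so R3-cKO is used below as a label only. Ddx3y, a gene of the Y chromosome, did not exceed 0.02 FPKM in libraries 2 and 3 labelled R3-cKO of either zone, while each other library had at least 4.96 FPKM, and the labels do not give the sex of the mice. The zone labels were checked against marker lists. The 8 deep zone and epiphyseal cartilage markers summed to 13650 to 31600 FPKM in the DZ libraries and to 3870 to 12140 FPKM in the SFZ libraries. The 6 superficial zone markers summed to 14.2 to 119 FPKM in the DZ and to 212 to 821 FPKM in the SFZ, so both sums separated the zones without overlap. Col2a1 led the first sum and Abi3bp the other. Taken singly, Col2a1, Acan and Epyc of the deep zone list and Abi3bp, Thbs4 and Cilp of the superficial list had no overlap. All other markers of these lists overlapped between the zones.

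SOX9 is the factor that chondrocytes need to form and to make cartilage matrix, and it binds enhancers of genes such as Col2a1 and Acan. SOX5 and SOX6, which belong to the SoxD group and lack a transactivation domain of their own, act beside SOX9 on the same genes, and these factors together are known as the Sox trio. SOX8 belongs with SOX9 to the SoxE group, whereas SOX4 and SOX11 belong to the SoxC group, which is best known from progenitor cells of the skeleton, including those of the future joints.

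Values are FPKM, fragments corrected for transcript length and library size, which the authors scaled between libraries. They are linear and length-corrected, so levels of different genes can be set side by side. The unit was inferred, the depth of the libraries is unknown, and error could be taken only from how far libraries of a group lay apart. Zones were compared within R3-Cntl, within R3-cKO and over both genotypes, and genotypes within each zone. Log2 fold changes are differences of log2(FPKM + 1) fitted by limma over all genes that reached 1 FPKM in 3 or more libraries of a comparison, and a gene is called at a Benjamini-Hochberg adjusted p under 0.05. All 6 genes passed this filter in each of the comparisons. Exact permutation tests were two-sided, and they cannot give a p below 0.1 for 3 libraries against 3, or below 0.005 for the zones over both genotypes.

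The 6 genes held most of the Sox transcript level of these cells. They made up 88.6 to 95.4% of the FPKM summed over the 19 family genes, with sums of 88.02 to 194.8 FPKM. Sox9 contributed 40.4 to 62.1% of the sum of the 6, Sox4 6.87 to 42.8%, Sox6 9.46 to 15.6%, Sox5 4.73 to 6.66%, Sox8 1.195 to 12.0% and Sox11 1.22 to 3.22%. Sox9 had the highest value of the 6 in every library but R3-cKO SFZ library 3, where Sox4 stood above it. Of the other 13 family genes in the table, Sox12, the remaining SoxC gene, was the most abundant with 5.67 to 10.04 FPKM. Sox7, Sox13 and Sox18 reached 1 FPKM in some libraries, and the SoxE gene Sox10, a marker of glia and neural crest, stayed at or under 0.29 FPKM.

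**Figure D1:**
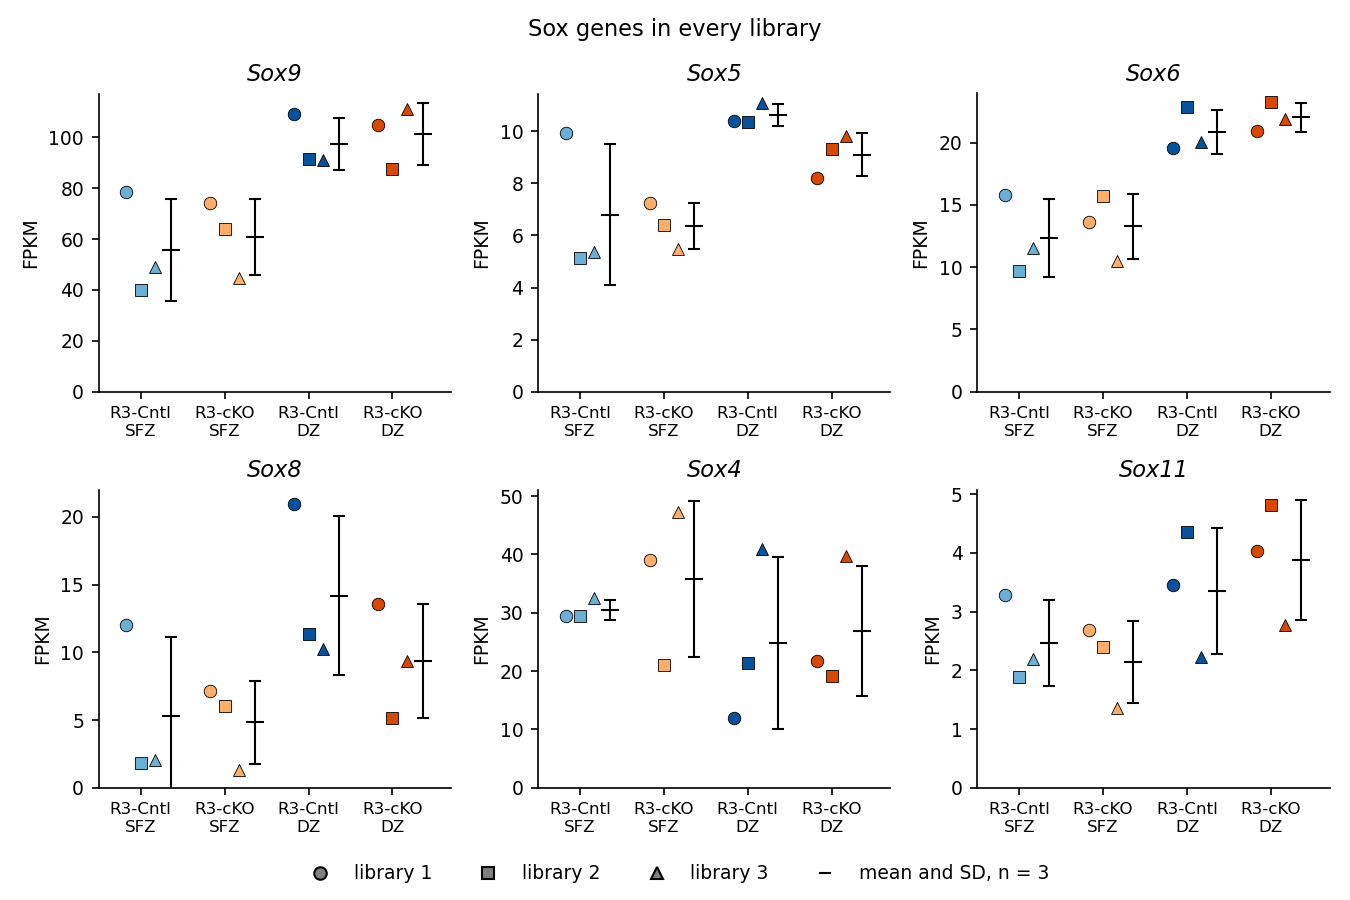
FPKM of each of the 6 Sox genes (vertical axes, from 0) in the 3 libraries of each group, with the mean and SD beside the points and the lower bar of Sox8 in R3-Cntl SFZ cut at 0. All DZ points of Sox9 and Sox6 lie above all SFZ points, with Sox9 at 87.57 FPKM or more in the DZ and at 78.31 FPKM or less in the SFZ.

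Over both genotypes, Sox9, Sox6 and Sox5 were higher in DZ than in SFZ cells, and these 3 were the genes of the 6 that passed the test. Genes called higher in the DZ were 506 of the 11765 tested, or 4.30%, genes called lower 2219, or 18.9%, and genes at an unadjusted p under 0.05 in limma 4363, or 37.1%. In either direction 2725 genes (23.2%) were called. Sox8 and Sox11 were also higher on average in the DZ, and Sox4 lower, without passing it. Over both genotypes the block was the library number within each genotype, which paired SFZ with DZ libraries as if from the same mouse. Whether they were is not stated. With this block, 33.7% of the genes were called by limma, Sox8 (adjusted p = 0.0218) and Sox11 (adjusted p = 0.0327) among them. In bulk RNA, fewer cells of a type and less RNA per cell cannot be told apart.

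Sox9 (Entrez gene 20682) is a protein-coding gene on the forward strand of chromosome 11 of mm9, from 112643538 to 112649074. SFZ libraries 1, 2 and 3 measured 78.31, 40.06 and 48.82 FPKM (R3-Cntl) or 74.12, 63.74 and 44.55 FPKM (R3-cKO) of Sox9. DZ libraries measured 108.92, 91.49 and 91.08 FPKM (R3-Cntl) or 104.65, 87.57 and 111.16 FPKM (R3-cKO). Every DZ library was above every SFZ library, and R3-Cntl SFZ library 1 was the SFZ library nearest to the DZ. The group means in falling order were 101 ± 12.2 FPKM in R3-cKO DZ, 97.2 ± 10.2 in R3-Cntl DZ, 60.8 ± 15.0 in R3-cKO SFZ and 55.7 ± 20.04 in R3-Cntl SFZ (SD, n = 3 each). Only the step between the zones was larger than the spread, while the genotypes within a zone overlapped. The log2 fold change of DZ over SFZ was 0.80 (standard error 0.166, 95% confidence interval 0.43 to 1.16, limma adjusted p = 0.00767), with an exact permutation p of 0.005. By the ratio of arithmetic means, DZ cells had 1.70 times the Sox9 of SFZ cells. Among the genes of a library ordered by FPKM, Sox9 ranked between 523 and 764 in the DZ and between 845 and 1831 in the SFZ.

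Sox6 (Entrez gene 20679) is a protein-coding gene on the reverse strand of chromosome 7, from 122614858 to 123182258. Its values in SFZ libraries 1, 2 and 3 were 15.82, 9.69 and 11.51 FPKM (R3-Cntl) or 13.62, 15.67 and 10.51 FPKM (R3-cKO). Those of DZ libraries were 19.57, 22.84 and 20.07 FPKM (R3-Cntl) or 20.95, 23.23 and 21.89 FPKM (R3-cKO). The zones did not overlap, and the 6 DZ values lay closer together than the 6 SFZ values. In falling order the means were 22.0 ± 1.15 FPKM in R3-cKO DZ, 20.8 ± 1.76 in R3-Cntl DZ, 13.3 ± 2.60 in R3-cKO SFZ and 12.3 ± 3.15 in R3-Cntl SFZ (SD, n = 3 each), and again only the step between the zones exceeded the spread. The log2 fold change was 0.72 (standard error 0.118, 95% interval 0.46 to 0.98, limma adjusted p = 0.00273; exact permutation p = 0.005). No other of the 6 had a lower adjusted p. Sox9 and Sox6 were the 2 of the 6 genes whose DZ libraries all lay above all SFZ libraries, as did 193 of the 11765 genes tested (1.64%).

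Sox5 (Entrez gene 20678) is a protein-coding gene of the reverse strand of chromosome 6, from 143776945 to 144730497. For Sox5, SFZ libraries 1, 2 and 3 gave 9.92, 5.13 and 5.36 FPKM (R3-Cntl) or 7.25, 6.41 and 5.48 FPKM (R3-cKO). The DZ gave 10.41, 10.35 and 11.10 FPKM (R3-Cntl) or 8.19, 9.31 and 9.82 FPKM (R3-cKO). R3-Cntl SFZ library 1 was the exception to a gap between the zones: it stood above all 3 DZ libraries labelled R3-cKO, and the 5 remaining SFZ libraries stood below every DZ library. Mean levels fell from 10.6 ± 0.417 FPKM in R3-Cntl DZ to 9.11 ± 0.834 in R3-cKO DZ, 6.80 ± 2.70 in R3-Cntl SFZ and 6.38 ± 0.885 in R3-cKO SFZ (SD, n = 3 each). The first step of that order, between the genotypes in the DZ, had no overlap, and the later steps were within the spread. DZ cells were higher, with 0.54 as log2 fold change (standard error 0.136, 95% interval 0.24 to 0.84, limma adjusted p = 0.0164; exact permutation p = 0.005). The calls of Sox9, Sox6 and Sox5 over both genotypes held under each alternative that could be fitted, with the adjusted p of limma at most 0.0207 for Sox9, 0.00883 for Sox6 and 0.0408 for Sox5.

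Sox5 and Sox6 moved together between zones, and the mice carry altered Runx3 alleles. Stretches before starts listed for these 2 genes are therefore shown with that of Sox4, which had the opposite average direction. They are RefSeq sequences of build GRCm38.p6, 250 bases before a start, written 5′ to 3′ on the reverse strand, where all 3 genes lie. Capitals mark each match on either strand to the SOX words ACAAAG and ACAATG and to the RUNX words TGTGGT and TGCGGT. The Sox5 stretch is chr6:143947107-143947356, the first Sox6 stretch shown chr7:116038745-116038994, the second shown, further into the gene, chr7:115846141-115846390, and that of Sox4 chr13:28953700-28953949.
Sox5: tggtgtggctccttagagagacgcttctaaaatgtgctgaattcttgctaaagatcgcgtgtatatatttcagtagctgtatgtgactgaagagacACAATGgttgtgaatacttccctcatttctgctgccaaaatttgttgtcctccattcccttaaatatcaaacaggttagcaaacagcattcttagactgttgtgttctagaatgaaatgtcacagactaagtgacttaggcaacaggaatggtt
Sox6 first: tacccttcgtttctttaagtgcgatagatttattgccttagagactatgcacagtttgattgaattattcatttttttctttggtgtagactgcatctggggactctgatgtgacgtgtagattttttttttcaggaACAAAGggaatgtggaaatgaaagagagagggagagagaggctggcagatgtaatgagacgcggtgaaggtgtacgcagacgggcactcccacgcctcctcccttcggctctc
Sox6 second: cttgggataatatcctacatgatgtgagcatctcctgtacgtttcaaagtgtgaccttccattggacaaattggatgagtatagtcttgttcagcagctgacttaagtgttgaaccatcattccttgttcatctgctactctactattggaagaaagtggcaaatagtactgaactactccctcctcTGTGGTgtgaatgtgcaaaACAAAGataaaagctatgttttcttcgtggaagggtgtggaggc
Sox4: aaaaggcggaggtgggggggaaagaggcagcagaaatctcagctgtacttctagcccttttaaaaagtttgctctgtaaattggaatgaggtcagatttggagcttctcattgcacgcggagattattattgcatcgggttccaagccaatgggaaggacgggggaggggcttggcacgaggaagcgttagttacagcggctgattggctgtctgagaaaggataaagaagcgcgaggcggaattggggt
RefSeq entries matched 5 of the 6 genes, with 10 starts in all and 6 of them for Sox6. The Sox5 stretch precedes the only start listed for it. Its position lies nearer the 3′ than the 5′ end of the Sox5 span given above, which is of build mm9. It therefore need not be the main promoter of the gene. A SOX word was present at 6 of the 10 starts, 5 of Sox6 and the 1 of Sox5, against 25.2% of 32851 promoters of the same length. A RUNX word was present at 2 of the 10, both of Sox6, against 18.6% of all promoters. Of these 2, the one not shown is chr7:115824711-115824960, where the RUNX word overlaps a SOX word. Other starts of Sox6 are not shown either, and the Sox6 starts not shown hold up to 4 SOX words. Starts of the same gene are not independent. The stretches of Sox4, Sox8 and Sox11 held neither kind of word. A match is a description of letters and says nothing of binding.

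Sox8 (Entrez gene 20681) is a protein-coding gene of the reverse strand of chromosome 17, from 25702837 to 25707631. Sox8 had 12.00, 1.80 and 2.04 FPKM (R3-Cntl) or 7.14, 6.02 and 1.32 FPKM (R3-cKO) in SFZ libraries 1, 2 and 3. It had 20.95, 11.39 and 10.22 FPKM (R3-Cntl) or 13.60, 5.14 and 9.37 FPKM (R3-cKO) in DZ libraries. Library 1 was the highest of its group in all 4 groups, as it was for Runx3, and the zones overlapped, with 3 SFZ libraries above the lowest DZ library. The means were 14.2 ± 5.89 FPKM in R3-Cntl DZ, 9.37 ± 4.23 in R3-cKO DZ, 5.28 ± 5.82 in R3-Cntl SFZ and 4.83 ± 3.09 in R3-cKO SFZ (SD, n = 3 each), and no step of this order exceeded the spread. Its log2 fold change between zones, 1.27, was numerically above those of the trio, but its standard error of 0.447 was larger as well (95% interval 0.28 to 2.25, limma adjusted p = 0.0617; exact permutation p = 0.05). Sox8 was called without R3-Cntl SFZ library 1 (log2 fold change 1.55, limma adjusted p = 0.0263), without R3-cKO SFZ library 1 (1.45, 0.0489) or without R3-cKO DZ library 2 (1.45, 0.0433), and over all alternatives its adjusted p ranged from 0.0218 to 0.142. Sox9 exceeded Sox8 by a factor of 5.20 to 33.8, and that factor averaged 17.9 ± 10.5 in the SFZ and 9.79 ± 4.15 in the DZ (SD, n = 6 each).

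Sox4 (Entrez gene 20677) is a protein-coding gene without introns on the reverse strand of chromosome 13, from 29040788 to 29045582. Sox4 values in SFZ libraries 1, 2 and 3 were 29.51, 29.45 and 32.55 FPKM (R3-Cntl) or 39.12, 21.09 and 47.21 FPKM (R3-cKO). In DZ libraries they were 12.04, 21.38 and 40.97 FPKM (R3-Cntl) or 21.80, 19.22 and 39.75 FPKM (R3-cKO). Library 3 was the highest of its group in all 4 groups, and the DZ libraries of number 3 lay above most SFZ libraries, so the zones overlapped widely. The means fell from 35.8 ± 13.4 FPKM in R3-cKO SFZ to 30.5 ± 1.77 in R3-Cntl SFZ, 26.9 ± 11.2 in R3-cKO DZ and 24.8 ± 14.8 in R3-Cntl DZ (SD, n = 3 each), with each step within the spread. The log2 fold change of DZ over SFZ was -0.42 (standard error 0.286, 95% interval -1.05 to 0.21, limma adjusted p = 0.309; exact permutation p = 0.225). Its sign was negative under each alternative, from -0.61 (R3-Cntl DZ library 3 left out) to -0.24 (R3-Cntl DZ library 1 left out), and its limma adjusted p ranged from 0.112 to 0.575.

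Sox11 (Entrez gene 20666), the other SoxC gene of the 6 and also without introns, lies on the reverse strand of chromosome 12 from 28025562 to 28027574. It was the lowest of the 6 in most libraries, with 3.29, 1.89 and 2.20 FPKM (R3-Cntl) or 2.68, 2.39 and 1.35 FPKM (R3-cKO) in SFZ libraries 1, 2 and 3. DZ cells had 3.46, 4.36 and 2.23 FPKM (R3-Cntl) or 4.04, 4.81 and 2.78 FPKM (R3-cKO) of Sox11. The DZ libraries exceeded every SFZ library in 4 of 6 cases, and both DZ libraries of number 3 fell among the SFZ values. The means were 3.88 ± 1.03 FPKM in R3-cKO DZ, 3.35 ± 1.07 in R3-Cntl DZ, 2.46 ± 0.735 in R3-Cntl SFZ and 2.14 ± 0.699 in R3-cKO SFZ (SD, n = 3 each), with neighbours that overlapped at every step. Unlike Sox4, Sox11 had a positive log2 fold change of 0.48 (standard error 0.177, 95% interval 0.09 to 0.87, limma adjusted p = 0.0711; exact permutation p = 0.02). It was called without R3-Cntl SFZ library 1 (log2 fold change 0.57, limma adjusted p = 0.0446) or without R3-Cntl DZ library 3 (0.59, 0.0305), and its adjusted p ranged from 0.0176 to 0.150 over all alternatives. The 2 SoxC genes thus had fold changes of opposite sign between zones, Sox4 was called under no alternative, and the call of Sox11 depended on the alternative.

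Scaling bears on each of these fold changes. The median log2 fold change of all 11765 genes was -0.14 as deposited, 0.03 after quantile normalization and 0.00 with median-of-ratios size factors. Relative to the median of the deposited scale, the 6 genes stood at 0.94 for Sox9, 0.86 for Sox6, 0.68 for Sox5, 1.41 for Sox8, 0.62 for Sox11 and -0.28 for Sox4. The split of called genes also depended on the scaling, from 506 higher and 2219 lower in the DZ as deposited to 1237 higher and 915 lower with quantile normalization and 1053 higher and 1088 lower with median-of-ratios size factors. Quantile normalization added calls for Sox8 (log2 fold change 1.47, limma adjusted p = 0.0495) and Sox11 (0.73, 0.0176), and median-of-ratios size factors added one for Sox11 (0.60, 0.0289). No scaling changed the sign of any of the 6 between zones.

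**Figure D2:**
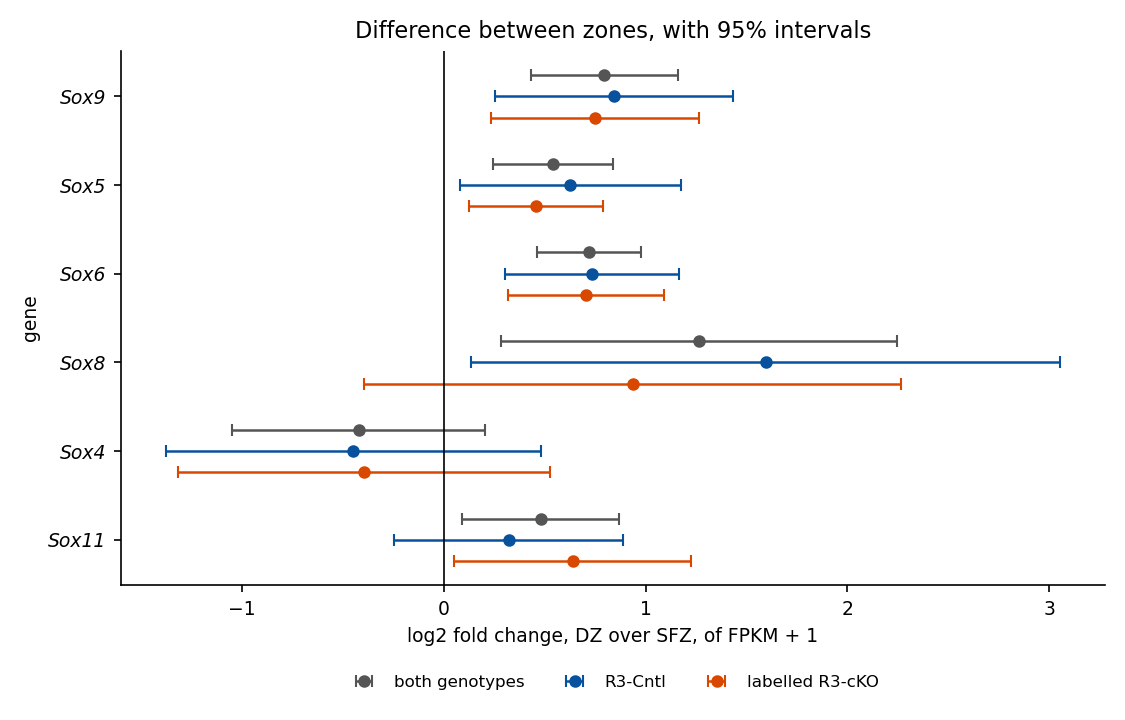
Log2 fold change of DZ over SFZ (horizontal axis) for each of the 6 genes, over both genotypes and within each, with 95% confidence intervals from limma. The intervals of Sox9, Sox5 and Sox6 lie above 0 in all 3 fits, and those of Sox4 span 0 in all 3.

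Within each genotype alone, none of the 6 genes was called between zones. In R3-Cntl mice, 140 of 11336 genes (1.24%) were called by limma, 17 of them higher (0.150%) and 123 lower (1.09%) in the DZ, and 3102 (27.4%) had an unadjusted p under 0.05, Sox9, Sox5, Sox6 and Sox8 among them. The log2 fold changes there were 0.84 for Sox9 (standard error 0.246, limma adjusted p = 0.103), 0.73 for Sox6 (0.181, 0.0801), 0.63 for Sox5 (0.230, 0.146) and 1.60 for Sox8 (0.611, 0.157). Sox11 stood at 0.32 (0.238, 0.402) and Sox4 at -0.45 (0.389, 0.474). All 3 DZ libraries were above all 3 SFZ libraries for Sox9, Sox5 and Sox6, as for 5.96% of the genes tested, and 32.4% had no overlap in either direction. R3-Cntl SFZ library 1, the SFZ library with the highest Sox9, Sox5, Sox6, Sox8 and Sox11, moved the calls: without it 505 genes were called, 204 of 11081 (1.84%) higher in the DZ, and Sox9 (log2 fold change 1.11, limma adjusted p = 0.0323), Sox5 (0.90, 0.0323), Sox6 (0.91, 0.0350) and Sox8 (2.31, 0.0323) were among them. Over all alternatives the adjusted p of these 4 reached 0.353, 0.420, 0.310 and 0.426 at most, each without R3-Cntl SFZ library 2, where limma called 0 genes (at most 4 without any library other than SFZ library 1) and 1502 had an unadjusted p under 0.05. With the library number as a block 7.33% of the genes were called, and Sox8 alone of the 6 (limma adjusted p = 0.0496). A single model of all libraries called 798 of the 11336 genes, and Sox6 alone of the 6 (limma adjusted p = 0.0360).

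In the libraries labelled R3-cKO, limma called 2 of 11336 genes (0.0176%), neither of them one of the 6, and 1602 (14.1%) had an unadjusted p under 0.05, Sox9, Sox5, Sox6 and Sox11 among them. The log2 fold change of Sox9 was then 0.75 (standard error 0.213, limma adjusted p = 0.219), that of Sox6 0.71 (0.159, 0.169), of Sox5 0.46 (0.138, 0.237) and of Sox11 0.64 (0.242, 0.319). Sox8 stood at 0.94 (0.550, 0.505) and Sox4 at -0.40 (0.380, 0.709). These 4 genes, Sox9, Sox5, Sox6 and Sox11, had all 3 DZ libraries above all 3 SFZ libraries, as did 4.24% of the genes tested, and 21.0% had no overlap in either direction. Library number tied SFZ to DZ libraries in this genotype. With it as a block 352 genes (3.11%) were called, again with none of the 6. The lowest adjusted p of limma among the 6 were then 0.0555 for Sox6 and 0.0600 for Sox11. Sox4, which was lower in the DZ at each library number, then had an adjusted p of 0.173 in limma.

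Sums of the trio and of Sox4 with Sox11 were set against each other within each library, the latter sum being mostly Sox4. The sum of Sox9, Sox5 and Sox6 came to 104.1, 54.88 and 65.69 FPKM (R3-Cntl) or 94.99, 85.82 and 60.54 FPKM (R3-cKO) in SFZ libraries 1, 2 and 3. DZ libraries came to 138.9, 124.7 and 122.2 FPKM (R3-Cntl) or 133.8, 120.1 and 142.9 FPKM (R3-cKO), without overlap between zones. The sum of Sox4 and Sox11 ranged from 23.48 to 48.56 FPKM in the SFZ, with a median of 33.8, and from 15.5 to 43.2 FPKM in the DZ, with a median of 25.8, so it overlapped almost entirely.

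The log2 ratio of these sums was 1.67, 0.81 and 0.92 (R3-Cntl) or 1.18, 1.87 and 0.32 (R3-cKO) for SFZ libraries 1, 2 and 3. For the DZ it was 3.16, 2.28 and 1.501 (R3-Cntl) or 2.37, 2.32 and 1.75 (R3-cKO). The ratio was above 0 in every library, and the 2 DZ libraries of number 3, where Sox4 was high, lay within the range of the SFZ. Its mean was 1.10 higher in the DZ on the log2 scale (1.18 for R3-Cntl, 1.02 for R3-cKO), against a pooled SD within groups of 0.64, and without any single library the difference lay between 0.89 and 1.31. With Sox9 alone in place of the trio it was 1.12, and with Sox12 added to the SoxC sum it was 1.04. No test was made of this ratio, since it is a score over genes chosen with earlier results known.

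**Figure D3:**
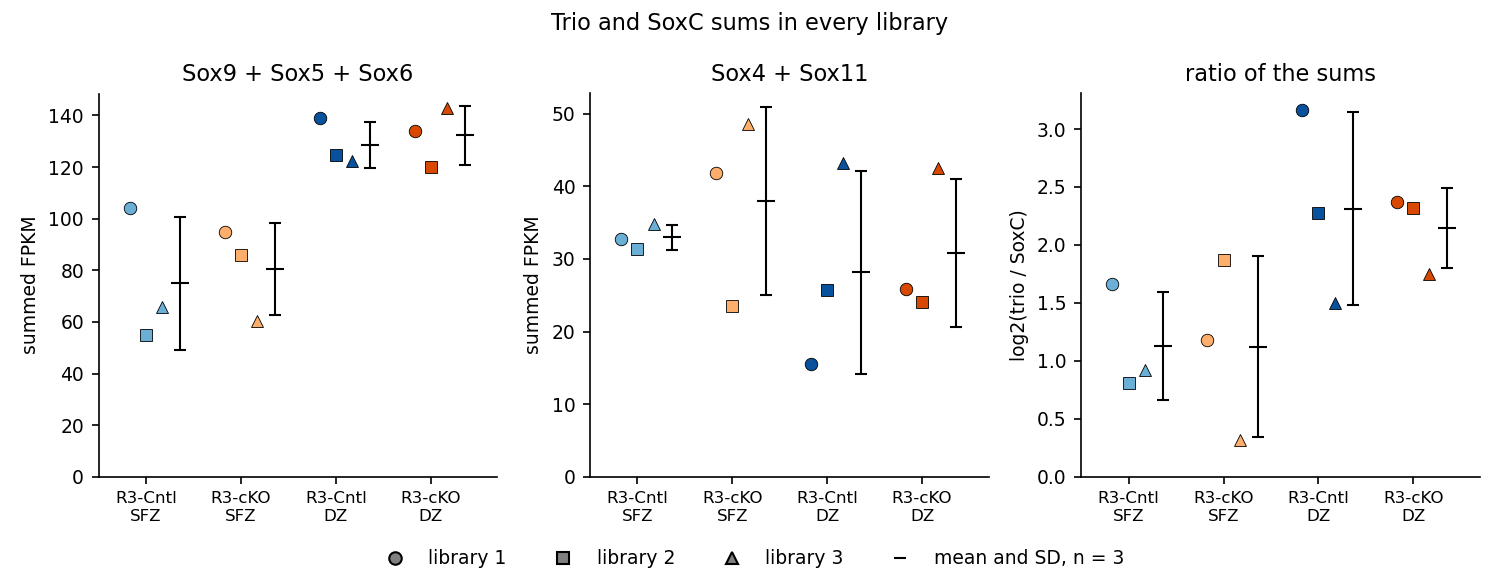
Summed FPKM of Sox9, Sox5 and Sox6, summed FPKM of Sox4 and Sox11, and the log2 ratio of these sums (vertical axes, from 0) in each library by group, with the mean and SD (n = 3) beside the points. The trio sum separates the zones, at 120.1 FPKM or more in the DZ and 104.1 FPKM or less in the SFZ, and the SoxC sum does not.

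Ratios within the trio varied less across the libraries than that of the SoxC pair. Sox9 was 2.69 to 3.63 times the sum of Sox5 and Sox6, with means of 2.98 ± 0.304 in the SFZ and 3.18 ± 0.439 in the DZ (SD, n = 6 each). Sox6 was 1.60 to 2.56 times Sox5, and among DZ libraries 2.23 to 2.56 times for R3-cKO against 1.81 to 2.21 times for R3-Cntl. In the SoxC pair, Sox4 stood at 3.48 to 35.0 times Sox11.

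Genes that SOX9 is known to act on followed the same direction between zones. All 20 such genes were tested, and 16 were called higher in the DZ over both genotypes (beside 4.30% of all genes) and 0 lower. Beside 37.1% of all genes, 18 of the 20 had an unadjusted p under 0.05 in limma. Their median log2 fold change was 1.55, beside -0.14 for all genes. Acan, which encodes the core protein of aggrecan, stood at 2.11 (standard error 0.417, limma adjusted p = 0.00610), Col2a1, the gene of the type II collagen chain, at 1.57 (0.301, 0.00531), and Matn1, a cartilage matrilin gene, at 2.22 (0.609, 0.0239). Col9a2, Col9a3 and Chad were above 0 without a call, and Cytl1 was the single gene below 0, at -0.27 (0.394, 0.646). The call of Col2a1 was lost with quantile normalization (log2 fold change 0.77, limma adjusted p = 0.158), under which 15 of the 20 were called, against 17 with median-of-ratios size factors. Within R3-Cntl the list had 0 genes called by limma and 18 at an unadjusted p under 0.05, beside 27.4% of all genes. Its median there was 1.71. Within the libraries labelled R3-cKO these were 0 and 10, beside 14.1% of all genes at such a p, with a median of 1.21. With the library number as a block limma called 13 within R3-Cntl, 0 within R3-cKO and 19 over both genotypes. Of all genes it then called 7.33%, 3.11% and 33.7% in these comparisons. Of the 20 genes, 7 are also in the list of deep zone markers, so the 2 lists are not independent.

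**Figure D4:**
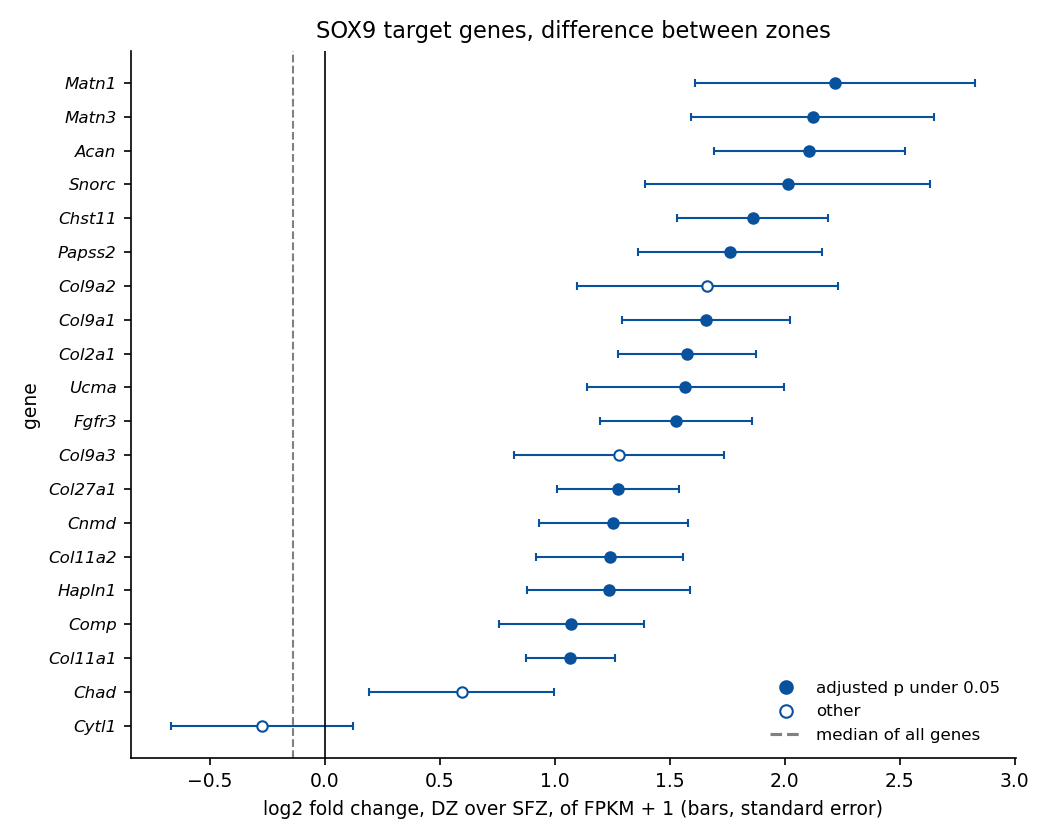
Log2 fold change of DZ over SFZ over both genotypes (horizontal axis), with its standard error, for the 20 genes that SOX9 is known to act on; filled points are called at a limma adjusted p under 0.05. All but Cytl1 lie to the right of 0, and the dashed line marks the median of all genes at -0.14.

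Calls among partners of SOX9 depended on the scaling. Of 11 cofactor genes, 1 was called higher in the DZ and 6 lower, where 4.30% and 18.9% of all genes were, with a median of -0.26 beside -0.14 for all genes. The one higher gene was Wwp2, which encodes a ubiquitin ligase and hosts the microRNA miR-140 (1.04, standard error 0.270, limma adjusted p = 0.0193). Among those lower were Ppargc1a, a transcriptional coactivator (-1.33, 0.271, 0.00697), and Ep300, a histone acetyltransferase (-0.28, 0.0696, 0.0154). With quantile normalization 1 remained called lower by limma and with median-of-ratios size factors 2, of which Ppargc1a was called under both. Among 16 tested of 17 further transcription factor genes of cartilage, 5 were called higher and 1 lower, with a median of -0.05. Foxa2, a forkhead factor of maturing chondrocytes, was higher by 1.23 (standard error 0.172, limma adjusted p = 0.00135) and Hif1a, which mediates the response to low oxygen, by 0.87 (0.155, 0.00408), while Runx2 was lower by -0.44 (0.0986, 0.0107). That call of Runx2 was lost with quantile normalization (limma adjusted p = 0.0734).

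SoxC genes are known from joint progenitors, and 11 joint and progenitor genes were looked at for that reason. Of its 9 tested genes, 0 were called higher and 3 lower in the DZ by limma, with 4 at an unadjusted p under 0.05 and a median of -0.49; of all genes 18.9% were called lower and 37.1% had such a p. The 3 lower were Osr1, Osr2 and Creb5, with log2 fold changes of -1.59, -2.15 and -0.998. Gdf5, a growth factor of the joint interzone, stood at 0.89 without a call (limma adjusted p = 0.0596) and was called with quantile normalization (1.13, 0.0285), with median-of-ratios size factors (1.02, 0.0389) and with the block (adjusted p = 0.00957). The block also called Erg (-0.41, limma adjusted p = 0.0305) and Cd44 (-1.14, 0.0435) lower. Of 9 hypertrophy genes, 0 were called by limma, 2 had an unadjusted p under 0.05 and the median was 0.41; with the block Col10a1 was called (2.24, limma adjusted p = 0.0224). The 3 tested genes among the other Sox family members, Sox7, Sox12 and Sox13, were not called and had 0 genes at an unadjusted p under 0.05 in limma, with a median of -0.02; Sox13, a SoxD gene, was called with quantile normalization (0.43, limma adjusted p = 0.0147).

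Markers of other cells also moved with the zone, and their part in the Sox results was not tested. The 10 markers of fibroblasts, tendon and synovium were all called lower in the DZ (beside 18.9% of all genes). The call of Pdgfra was lost with quantile normalization (limma adjusted p = 0.0706) and with median-of-ratios size factors (0.0676). Sums of the 10 markers were 3914 to 11060 FPKM in the SFZ and 119 to 2156 FPKM in the DZ, and Col1a1 was the most abundant of them. SFZ libraries 1, 2 and 3 came to 4043, 7928 and 4486 FPKM (R3-Cntl) or 4204, 3914 and 11060 FPKM (R3-cKO), and DZ libraries to 119, 610.5 and 2156 FPKM (R3-Cntl) or 223.5, 594.9 and 1504 FPKM (R3-cKO). The DZ libraries of number 3, where Sox4 was high and the trio ratio low, thus had the highest sums of the DZ, and R3-cKO SFZ library 3, with the highest Sox4 of all libraries, had the highest sum of all. Not every library followed this: R3-Cntl SFZ library 2 had the next highest sum and the lowest Sox4 of its group, and R3-cKO DZ library 2 had a higher sum than library 1 and less Sox4.

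Macrophage markers were lower in the DZ as well, with 5 of 6 called (beside 18.9% of all genes called lower) and the other, Ptprc, under 1 FPKM in every library. Only 2 were called with quantile normalization and 3 with median-of-ratios size factors. Their sums, mostly from Lyz2, were 157.1, 126.9 and 6.9 FPKM (R3-Cntl) or 121.8, 13.66 and 56.4 FPKM (R3-cKO) in SFZ libraries 1, 2 and 3, against 3.71 to 20.4 FPKM in the DZ. The 4 osteoblast markers, led by Bglap2 and with Dmp1 under 1 FPKM throughout, summed to 21.4 to 69.6 FPKM in the SFZ and 9.17 to 23.2 FPKM in the DZ. Of 3 tested genes 2 were called lower, beside the same 18.9% of all genes. The 6 endothelial markers, led by Pecam1, were low, with Kdr, Tek and Cldn5 under 1 FPKM in every library. Their sums were 0.53 to 5.64 FPKM in the SFZ and 0.05 to 0.37 FPKM in the DZ, without overlap. Mbp, a gene of myelin, was called higher in the DZ (0.59, standard error 0.137, limma adjusted p = 0.01215), with 0.27 to 0.72 FPKM in the SFZ and 0.89 to 2.4 FPKM in the DZ, the direction of the trio. The 5 neuronal markers, led by Tubb3, summed to at most 4.45 FPKM with the other 4 under 1 FPKM, the 5 keratinocyte markers, led by Trp63, to at most 7.90 FPKM with Krt5 and Krt14 under 1 FPKM, and the 3 erythroid markers in the table, led by Alas2, to at most 0.11 FPKM. The 6 muscle markers, led by Acta1 and with Ckm under 1 FPKM, summed to 78.8 FPKM in R3-Cntl SFZ library 2, where Myog measured 9.36 FPKM, and to at most 18.7 FPKM in every other library. The 6 markers of cycling cells, led by Pcna, summed to 66.9 to 442 FPKM in the SFZ and 65.3 to 342 FPKM in the DZ. By limma, 0 neuronal, keratinocyte, muscle and cycling markers were called between zones, with 1 neuronal marker, Tubb3, and 0 of the others at an unadjusted p under 0.05. Tubb3 was called lower in the DZ with the library number as a block (-0.57, limma adjusted p = 0.0358).

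Between genotypes, none of the 6 genes was called in either zone. In the SFZ limma called 0 of 11537 genes (0%), and 34 (0.295%) had an unadjusted p under 0.05, none of the 6 among them. Without R3-cKO SFZ library 2 limma again called 0, but 1204 genes had an unadjusted p under 0.05, Sox4 among them (0.48, adjusted p = 0.470). The log2 fold changes of the libraries labelled R3-cKO over R3-Cntl were 0.15 for Sox9 (95% interval -0.58 to 0.87), -0.03 for Sox5 (-0.64 to 0.57), 0.11 for Sox6 (-0.42 to 0.63), 0.09 for Sox8 (-1.73 to 1.90), 0.15 for Sox4 (-0.55 to 0.85) and -0.15 for Sox11 (-0.73 to 0.44). Each of these 6 signs turned when 1 SFZ library was left out, Sox9 for instance from 0.42 without R3-Cntl SFZ library 1 to -0.06 without R3-Cntl SFZ library 2. The ranges of the genotypes overlapped for all 6, whereas 277 SFZ genes (2.40%) had no overlap.

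In the DZ limma called 0 of 11091 genes (0%), and 404 (3.64%) had an unadjusted p under 0.05, again with none of the 6. Sox5 was the 1 gene of the 6 whose genotypes did not overlap, with the 3 R3-cKO libraries below the 3 R3-Cntl libraries, where 308 genes (2.78%) had all R3-cKO libraries lower, 5.26% all higher, and 891 (8.03%) no overlap in either direction. Its log2 fold change was -0.20 (standard error 0.113, 95% interval -0.47 to 0.07, limma adjusted p = 0.999), and the exact permutation p of 0.1 is the smallest that 3 libraries against 3 can give. At each library number, Sox8 in the DZ was lower for R3-cKO than for R3-Cntl, with overlapping ranges and a log2 fold change of -0.57 (0.380, -1.48 to 0.34, limma adjusted p = 0.999; exact permutation p = 0.4). Sox9 stood at 0.05 (95% interval -0.29 to 0.40), Sox6 at 0.08 (-0.19 to 0.35), Sox4 at 0.21 (-0.90 to 1.31) and Sox11 at 0.17 (-0.41 to 0.76). Sox6 and Sox11 were higher for R3-cKO at each library number, with overlapping ranges. Neither was called with the number as a block (limma adjusted p = 0.598 for Sox6 and 0.405 for Sox11). The signs of Sox9, Sox4 and Sox11 each turned when 1 DZ library was left out.

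DZ libraries that share a number resembled each other across genes. Blocking on it gave limma 1830 genes (16.5%) at an unadjusted p under 0.05 and 0 called, and the standard error of Sox8 fell to 0.177, with an unadjusted p of 0.0221 in limma and an adjusted p of 0.247. Sox5 then had an adjusted p of 0.307 in limma. The difference of the genotype effect between zones was called for 0 of 11765 genes (0%) by limma. Of these genes 99 (0.841%) had an unadjusted p under 0.05, none of the 6 among them. Such genes were 714 without R3-cKO SFZ library 2. With the number within each genotype as a block they were 949, again with none of the 6 and with 0 called. Without R3-Cntl SFZ library 1 they were 421, Sox5 among them (-0.44, limma adjusted p = 0.878). It was -0.66 for Sox8 (standard error 0.913, 95% interval -2.68 to 1.37), 0.32 for Sox11 (0.358, -0.47 to 1.11) and -0.17 for Sox5 (0.280, -0.79 to 0.45), and -0.09, -0.03 and 0.05 for Sox9, Sox6 and Sox4. 

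**Figure D5:**
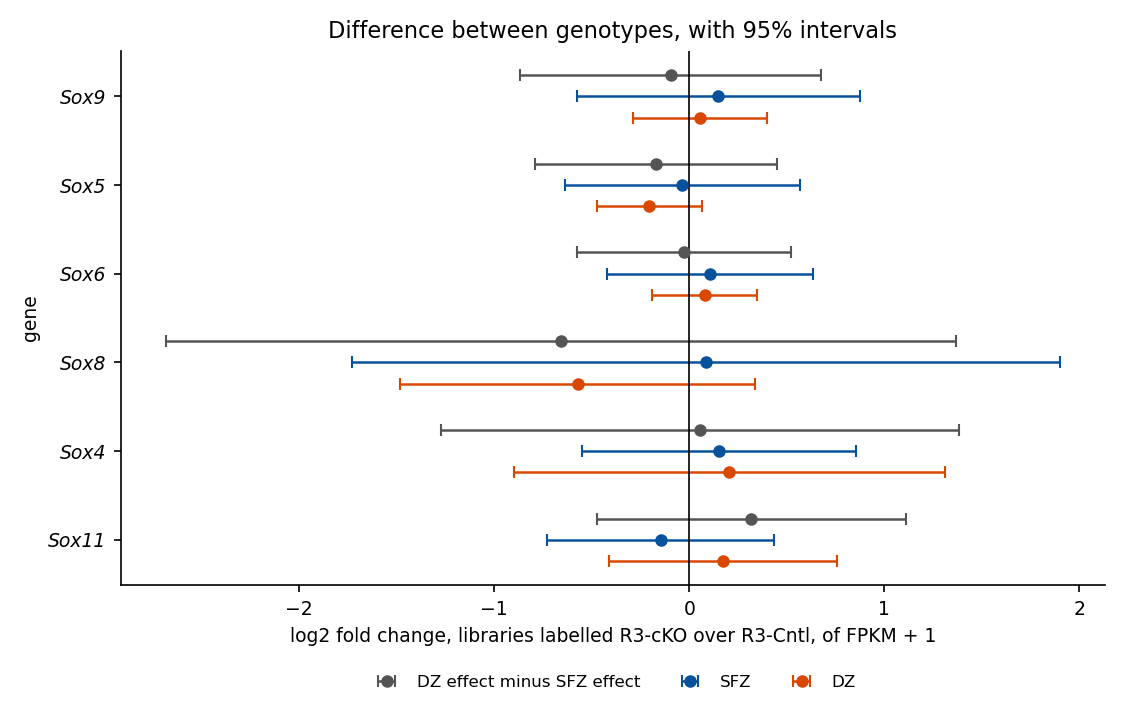
Log2 fold change of the libraries labelled R3-cKO over R3-Cntl (horizontal axis) for each of the 6 genes in the SFZ and in the DZ, and the DZ effect minus the SFZ effect, with 95% confidence intervals from limma. All 18 intervals span 0.

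In the SOX9 list no gene was called between genotypes in either zone. For the DZ, 19 of its 20 genes had lower averages for R3-cKO, with a median of -0.62 beside 0.05 for all genes, and 0 were called by limma, with 2, Col11a2 and Hapln1, at an unadjusted p under 0.05. In the same comparison 3 of 3 tested osteoblast markers, Bglap (-1.32), Bglap2 (-0.88) and Sp7 (-0.66), and the macrophage marker Lyz2 (-1.15) were at an unadjusted p under 0.05 and not called by limma (adjusted p = 0.999), as was the hypertrophy gene Alpl (-1.63), and their part was not tested. With the number as a block 14 of the SOX9 list had an unadjusted p under 0.05 and 0 were called by limma. Of all genes 16.5% had such a p with the block and 3.64% without it. In the SFZ 10 of the 20 were lower and 10 higher, with a median of 0.03, and 0 were called by limma, as were 0 at an unadjusted p under 0.05. The difference of the genotype effect between zones was called for 0 of the 20 by limma, with 0 at an unadjusted p under 0.05 and the lowest unadjusted p at 0.109 for Col27a1 (-0.86, standard error 0.488, adjusted p = 0.999).

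The genes most like each Sox gene were sought among the 8286 genes that averaged 5 FPKM or more, by Pearson's r of log2(FPKM + 1) over the 12 libraries. These values are a description, since libraries share zone, genotype and scaling, and r within the 6 SFZ and within the 6 DZ libraries is given beside them. Closest to Sox9 were Epyc, which encodes the cartilage proteoglycan epiphycan (r = 0.98 over all, 0.97 within the SFZ and 0.73 within the DZ), Acan (0.98, 0.99 and 0.70), Chst11, a chondroitin sulfotransferase gene (0.98, 0.98 and 0.59), Zfp385b and Kctd4. Acan and Chst11 are also among the 20 genes of the SOX9 list. For Sox8 they were Pygl, which encodes the liver form of glycogen phosphorylase (0.98, 0.97 and 0.99), Clec3a, a cartilage lectin gene (0.98, 0.98 and 0.96), Hapln1, the link protein gene (0.97, 0.99 and 0.86), Snorc and Moxd1. Sox8 thus followed its nearest genes within both zones, and Sox9 more closely within the SFZ.

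Sox5 was closest to Stk26 (0.96, 0.91 and 0.87), Frmd7, Xylt1, Rab11fip4 and Msi2. Near Sox6 were Ctnnal1 (0.96, 0.87 and 0.45), Plagl1 (0.96, 0.90 and -0.19), Rps6ka1 and Stk26, so that Stk26, a kinase gene, was near both SoxD genes. The likeness of Sox6 rested on the zones and on the SFZ, as r within the DZ was as low as -0.39, for Rps6ka1. Sox4 was closest to Pcyox1 (0.98, 0.97 and 0.99), Antxr2 (0.96, 0.96 and 0.99), Dlg3, Tmem9 and Nipsnap1, all with r of at least 0.88 within each zone, and these 5 followed its high values in libraries of number 3. Sox11 was closest to Slc35c1 (0.95, 0.97 and 0.93), Mmachc, Ogfr, Cnnm4 and Ube4b. No gene named here was near both a trio gene and a SoxC gene.

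Sox4 shares part of its span with Gm17419, a lincRNA gene of the opposite strand, and Sox6 with 1110006G14Rik, also of the opposite strand, while the long Sox5 gene holds 5 annotated noncoding genes of the opposite strand. Neither these nor the 1 further noncoding gene on the strand of Sox5 are in the table, and how reads were assigned by strand is not stated, so reads of such genes cannot be told apart from those of the Sox genes. Sox8, Sox9 and Sox11 overlap no other annotated gene.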

How the data were processed

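The values were used as deposited. Per the submitters' notes, reads of 100 bp pairs (BGIseq-500) were mapped to mm9 with Bowtie 0.12.2, and the authors turned them into FPKM and scaled these between libraries by TMM before deposit; the unit was inferred from the values and the notes. Read depth is unknown. No library was left out of the main comparisons.

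Genes that reached 1 FPKM in 3 or more libraries of a comparison were tested on log2(FPKM + 1) by limma 3.58.1 with a mean trend in R 4.3.3, with Benjamini-Hochberg adjustment. Descriptions and exact two-sided permutation tests used Python 3.11.15, pandas 2.3.3 and NumPy 2.4.6, and figures matplotlib 3.10.9. The log2 ratio of the trio to SoxC was not tested.

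The 6 genes and the lists (other Sox genes, SOX9 targets, SOX9 cofactors, cartilage transcription factors, joint and progenitor genes, hypertrophy, and markers of zones and other cells) were chosen with earlier results of these data known. Snorc is listed in the values as 3110079O15Rik. Genes named in the text are the 6, genes of these lists, and for each of the 6 up to 5 genes, taken from the 5 with the highest r among those with a mean of at least 5 FPKM. Runx3 and Ddx3y were looked at as checks of the labels.

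The main fits took no libraries as pairs, and the block was an alternative in every comparison. Same-number libraries were held to resemble each other where each of their correlations of deviations from group means, over 11359 genes, was over 0.1. This held for genotypes in the DZ (0.65, 0.78 and 0.69, at most -0.05 otherwise) and zones in R3-cKO (0.42, 0.78 and 0.65, at most 0.25 otherwise). It did not hold for genotypes in the SFZ (0.79, -0.09 and -0.42, up to 0.69 otherwise) or zones in R3-Cntl (0.58, 0.11 and -0.15, up to 0.58 otherwise).

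Alternatives were other pseudocounts, other filters, median-of-ratios size factors, quantile normalization, the number as a block, a single model of the 12 libraries, ratios of arithmetic means, and each library left out. For zones over both genotypes and for the interaction, the block was the number within each genotype. Promoter sequences are from NCBI RefSeq, build GRCm38.p6; Sox9 had no entry under its name there.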

Additional observations from a re-analysis of the deposited data

How the results depend on the processing

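Of 289 alternative results for the 6 genes apart from those with a library left out, 279 were the same as the main one, 7 stronger and 3 reversed. Under a mean of at least 10 FPKM, Sox5, Sox8 and Sox11 mostly had no value.

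For zones in R3-Cntl, limma called 140 genes, against 88 with a pseudocount of 0.1, 29 with 5, 0 without a filter (3844 at an unadjusted p under 0.05), 8 with a mean of at least 10 FPKM, 1 with quantile normalization, 17 with median-of-ratios size factors, 831 with the number as a block and 798 in a single model. Leaving out 1 library gave 505 without R3-Cntl SFZ library 1, but 0 to 4 without any other (0 without R3-Cntl SFZ library 2, DZ library 1 or DZ library 2). For zones in R3-cKO, 2 became 1 with either pseudocount, 7 without a filter, 0 with a mean of at least 10 FPKM, 352 with a block and 165 in a single model, and 0 to 5 with a library left out. Over both genotypes, 2725 became 1162 with a mean of at least 10 FPKM, between 1624 (R3-Cntl SFZ library 2 left out) and 2899 (R3-cKO SFZ library 2 left out).

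Stronger in limma were Sox6 in R3-Cntl in a single model (0.73, adjusted p = 0.0360) and Sox8 there with a block (1.595, adjusted p = 0.0496). Over both genotypes these were Sox8 with quantile normalization (1.47, adjusted p = 0.0495 in limma) or a block (1.27, 0.0218), and Sox11 with quantile normalization (0.73, 0.0176), size factors (0.60, 0.0289) or a block (0.48, 0.0327). Reversed were Sox8 between genotypes in the SFZ by arithmetic means (-0.13), and Sox4 in the interaction with quantile normalization (-0.043) and size factors (-0.0059).

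With a library left out, log2 fold changes between zones in R3-Cntl ranged from 0.64 to 1.11 for Sox9, 0.48 to 0.90 for Sox5, 0.59 to 0.91 for Sox6 and 1.21 to 2.31 for Sox8, -0.88 to -0.038 for Sox4 and 0.15 to 0.52 for Sox11, in R3-cKO from 0.37 to 1.27 for Sox8 and -0.73 to -0.16 for Sox4, and over both genotypes from 1.05 to 1.55 for Sox8 and 0.37 to 0.59 for Sox11. Between genotypes in the SFZ they ranged from -0.055 to 0.42 for Sox9, -0.18 to 0.23 for Sox5, -0.041 to 0.29 for Sox6, -0.30 to 0.81 for Sox8, -0.080 to 0.48 for Sox4 and -0.27 to 0.050 for Sox11. In the DZ they ranged from -0.016 to 0.15 for Sox9, -0.21 to 0.64 for Sox4, -0.86 to -0.24 for Sox8, 0.038 to 0.14 for Sox6 and -0.026 to 0.35 for Sox11, and in the interaction from -0.36 to 0.11 for Sox9, -0.21 to 0.12 for Sox6, -0.44 to -0.022 for Sox5, -1.38 to -0.27 for Sox8, 0.12 to 0.49 for Sox11 and -0.36 to 0.49 for Sox4.

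With 3 libraries per group and unknown depth, small differences could not be seen. Cells had been grown in monolayer by the methods.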
